A study of Mus musculus with 4 samples.

Results

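Cxcr6-positive cells with 0 counts of chosen markers of the regulatory, type 1 and type 2 programmes numbered 77 of 1050 colon CD4 T cells that passed the cell filter. This was a share of 7.33% (exact binomial 95% interval 5.83 to 9.08). They were chosen on measured counts: at least 1 count of Cxcr6 and 0 counts of Foxp3, Il10, Ikzf2, Tbx21, Ifng, Nkg7, Ccl5, Areg, Il4, Il5 and Il13. These 11 genes are called the gate genes below, and neither they nor Cxcr6 are results. The comparison group, called the reference cells, was the 251 filtered cells (23.9%) with 0 counts of the gate genes and of Cxcr6. At median depths of 1272 and 1151 counts per cell, a count of 0 does not show that a cell lacks the transcript. This limit holds for both groups and for the share.

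Male B6 mice, 6 weeks old, gave the cells, which were freed from the lamina propria of the colon with collagenase and dispase and sorted for CD45, the T cell receptor beta chain and CD4. They were profiled by inDrops, a droplet method that captures messenger RNA on barcoded oligo dT primers. The labels name 4 samples, all titled Btheta colon, and give no other genotype, treatment or control group. The cell barcodes of the deposited table carry no sample, so the cells count as 1 sample, no p-value is given, and the spread between mice was not tested.

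CXCR6 is a chemokine receptor that couples to G proteins of the inhibitory class. Its ligand CXCL16 is made by epithelial, endothelial and myeloid cells as a membrane-bound protein that can also be shed. CXCR6 is known as a mark of effector and tissue-resident T cells, which stay in barrier tissues and do not recirculate through blood and lymph. T cells that recirculate are known for the opposite set of genes: the lymph node homing receptor CCR7, the egress receptor S1PR1, and KLF2, the transcription factor that drives S1PR1.

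Levels are CPM, a gene's counts in a group divided by all counts of the group and scaled to 1000000. Differences are log2 ratios of CPM, Cxcr6-positive cells over reference cells, with exact conditional 95% intervals. All intervals cover counting error only, not differences between cells or mice. Where a group had 0 counts of a gene, the ratio was set against a floor of 3 counts in the group and is a bound. A ratio of at least 1.5-fold is a size, not a test, and since the same counts chose the cells, every difference from the reference cells is a description.

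The Cxcr6-positive cells held 113777 counts in all, with a median of 1272 counts per cell (lowest 508, highest 4410) and 622 genes. The reference cells held 340757 counts, with a median of 1151 counts and 553 genes. The median mitochondrial share was 4.67% against 5.32%. None of the 77 cells, but 11 of the 251 reference cells (4.38%), had 3 or more counts of epithelial or stromal genes. Such cells weigh on single genes of the reference: Muc2, the goblet cell mucin, had 1261 counts in 6 reference cells, 869 of them in 1 cell, and 4 counts in the Cxcr6-positive cells. Ratios were therefore also taken without them.

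Cxcr6 lies on mouse chromosome 9 from 123806475 to 123811760 on the plus strand (GRCm38, GENCODE vM21), inside the gene Fyco1 (123789500 to 123851899, minus strand). Fyco1 had 1 count in the Cxcr6-positive cells and 11 in the reference cells and 39 in all filtered cells, against 166 Cxcr6 counts in the Cxcr6-positive cells and 510 in all. Of the 77 cells, 41 (53.2%) had 1 Cxcr6 count, 10 had 2, 9 had 3, 11 had 4, 2 had 5 and 4 had 6. Just outside the rule stood 40 Cxcr6-positive cells with exactly 1 count over the gate genes. Another 130 Cxcr6-positive cells had 2 or more such counts.

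**Figure D1:**
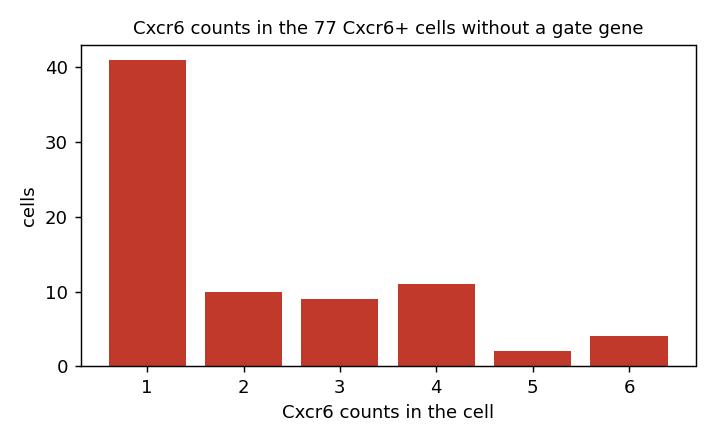
Number of cells (vertical axis) by the number of Cxcr6 counts in the cell (horizontal axis) for the 77 Cxcr6-positive cells without a gate gene. The bar at 1 count holds 41 cells, and 36 cells have 2 or more.

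Cxcr6 was not particular to cells without gate genes. In all, 247 filtered cells (23.5%) had a Cxcr6 count, and the 77 cells were 31.2% of them. Without a gate gene, 77 cells had Cxcr6 and 251 did not. With a gate gene, 170 had it and 552 did not, a like proportion. Of the 332 cells with Foxp3, the transcription factor of regulatory T cells, 20.2% (16.0 to 24.9) had a Cxcr6 count. Of the 52 cells without Foxp3 that had Tbx21 or Ifng, the type 1 markers, 32.7% (20.3 to 47.1) had one. Among the 18 filtered cells with 3 or more epithelial or stromal counts, 1 had a Cxcr6 count (5.56%, 0.141 to 27.3). Their median depth was 2694.5 counts. Whether these 18 sorted cells are T cells was not tested, and the interval holds the 23.5% of all filtered cells. Among Cxcr6-positive cells the Cxcr6 level was 1459 CPM without a gate gene and 1209 CPM with one. These levels cannot show a difference in Cxcr6, because a Cxcr6 count was required of every cell in both groups. A required count makes up more of the CPM at lower depth. The median depth was 1272 counts per cell without a gate gene and 1507 with one.

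The T cell label held. All 77 cells had a count of at least 1 of 14 T cell identity genes, and their summed level was 11610 CPM against 9714 CPM in the reference cells. Cd4 itself stood at 519 and 411 CPM, and Trac, the constant part of the T cell receptor alpha chain, at 1160 and 1156 CPM. Thy1, a surface glycoprotein of T cells, was found in 68 of 77 cells and stood at 1828 CPM against 1203 CPM (0.60 on the log2 scale, 0.36 to 0.85). Cd3g, a chain of the T cell receptor complex, stood at 773 and 437 CPM (0.82, 0.43 to 1.21), while the Cd3e levels of 193 and 191 CPM were alike. Many genes of other cells had no count: 11 of 13 epithelial genes, 6 of 10 stromal or endothelial genes, 12 of 15 myeloid genes and 9 of 9 erythroid or mast cell genes had 0 counts in the 77 cells. The summed levels of the epithelial, stromal or endothelial and myeloid lists were 44.0, 141 and 316 CPM, against 5438, 1743 and 919 CPM in the reference cells. The shares of cells with a count did not differ in that way. They were 5.19% and 5.98% for epithelial, 15.6% and 12.7% for stromal or endothelial, and 23.4% and 19.5% for myeloid genes. Most of the myeloid sum came from Cst3, a secreted protease inhibitor, at 281 CPM against 255 CPM. B or plasma cell genes were found in 21 of the 77 cells (27.3%) and 78 reference cells (31.1%), at 246 and 431 CPM, mostly as Ighm, the immunoglobulin mu chain, in 15 and 69 cells. Cd79a, Cd79b and Jchain had 0 counts in the 77 cells. Genes of CD8, gamma delta, innate lymphoid or NK cells were found in 6 and 15 cells. In all, 26 of the 77 cells and 64 of the 251 reference cells had a count of an epithelial, stromal, endothelial or B cell gene other than Ighm, or 2 or more myeloid counts. Leaving these cells out is one of the alternatives.

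Across all genes with at least 50 counts over both groups, 205 of 1497 (13.7%) were at least 1.5-fold higher in the Cxcr6-positive cells and 192 (12.8%) at least 1.5-fold lower, with a median log2 ratio of 0.04. With at least 10 counts, the minimum used for the gene lists below, 20.7% of 6114 genes were higher and 27.4% lower by that size. List counts are to be read against these last shares. A list gene is called measured when it had at least 10 counts and a ratio could be formed.

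Genes of recirculating T cells were lower in the Cxcr6-positive cells than in the reference cells. Of 15 measured genes of the naive and circulating list, 11 were at least 1.5-fold lower and none at least 1.5-fold higher, with a median log2 ratio of −1.59. Summed over the list, the level was 1345 CPM against 3389 CPM. Klf2 had 16 counts in 7 of 77 cells and 236 counts in 74 of 251 cells, a level of 141 against 693 CPM (−2.30, −3.13 to −1.57), or 4.92-fold lower. Ccr7 had 1 count against 61 (−4.35, −9.68 to −1.82). S1pr1 had 8 counts against 67 (−1.48, −2.75 to −0.42).

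The transcription factor Lef1 and the growth factor binding protein Igfbp4, both known from naive T cells, had the same direction. Lef1 had 6 counts against 66 (−1.88, −3.37 to −0.68) and Igfbp4 had 1 count against 90 (−4.91, −10.2 to −2.39). Il6ra, a chain of the interleukin 6 receptor, stood at 26.4 against 158 CPM (−2.59, −4.91 to −0.96). Bcl2, the survival factor of resting lymphocytes, stood at 35.2 against 182 CPM (−2.37, −4.29 to −0.94). The exception was Tcf7, another transcription factor gene of the list, at 299 against 235 CPM (0.35, −0.28 to 0.94). It was found in 15 cells with at most 7 counts in a cell. Its ratio was −0.33 with counts capped at 1 per cell and −1.03 with each cell thinned to 500 counts, so its direction is not settled here.

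The naive genes were found in a part of the reference cells. Of 5 of them (Ccr7, Igfbp4, Lef1, S1pr1 and Klf2), at least 1 was found in 44.2% of reference cells (38.0 to 50.6) and 19.5% of Cxcr6-positive cells (11.3 to 30.1). After each cell was thinned to 500 counts, which sets the same depth for all, the shares were 34.3% (28.4 to 40.5) and 7.79% (2.91 to 16.2). Ratios that moved by more than 1.5-fold are therefore also given without the 111 reference and 15 Cxcr6-positive cells that had any of the 5 genes. This comparison was added after the data were seen.

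The genes known from resident T cells gave a mixed picture. Of 14 measured genes of the tissue residency list, 4 were at least 1.5-fold higher and 2 at least 1.5-fold lower, with a median log2 ratio of 0.37. Among all genes with at least 10 counts, 20.7% were higher and 27.4% lower by that size, so these counts do not set the list apart. Cd44, the hyaluronan receptor of antigen-experienced cells, stood at 1433 CPM in 49 of 77 cells against 687 CPM in 106 of 251 cells (1.06, 0.76 to 1.36), with a ratio of 0.46 when counts were capped at 1 per cell. Bhlhe40, a transcription factor of resident and cytokine-producing T cells, stood at 281 against 91.0 CPM (1.63, 0.87 to 2.39), the highest ratio among genes with at least 50 counts in 10% or more of the cells of the higher group. Rgs1, a brake on chemokine receptor signals, stood at 1266 against 713 CPM (0.83, 0.52 to 1.13). P2rx7, a receptor for extracellular ATP, stood at 202 against 120 CPM (0.75, −0.06 to 1.52).

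The surface proteins that define resident cells in most gates were not among the clear ones. Cd69, which retains cells in tissue by blocking S1PR1, stood at 439 against 293 CPM (0.58, 0.06 to 1.09), just under 1.5-fold. Its ratio was −0.30 after thinning and 0.00 when only the 36 cells with 2 or more Cxcr6 counts were used. Itgae, the integrin chain that binds epithelial E-cadherin, had 1 count in 77 cells against 14 counts in 11 reference cells (−2.22, −7.63 to 0.49). Itga4, the alpha 4 integrin chain of gut homing, stood at 158 against 214 CPM (−0.44, −1.27 to 0.32). Without the cells that had a naive gene, the list's median turned from 0.37 to −0.10, with Cd44 at 0.71, Bhlhe40 at 1.18, Rgs1 at 0.20 and Cd69 at 0.21. The residency list as a whole does not bear out the word resident in the working name of these cells, which are called here by their rule.

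**Figure D2:**
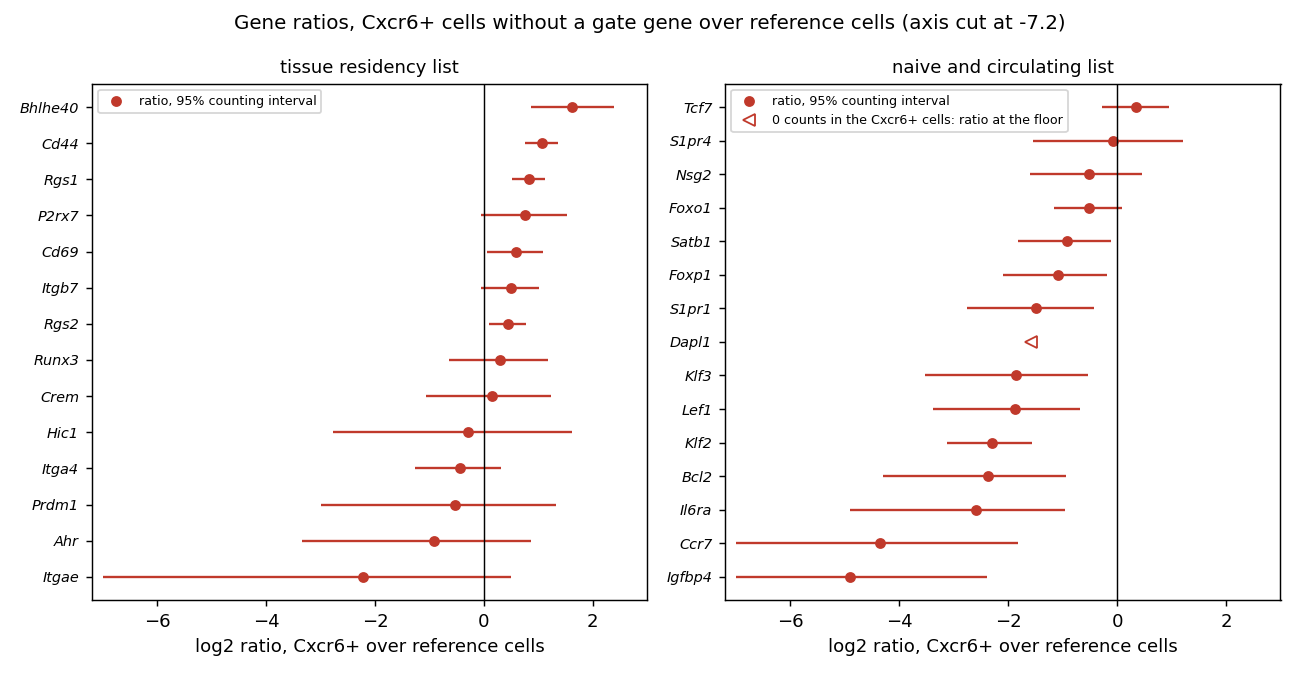
Log2 ratio of CPM, Cxcr6-positive cells without a gate gene over reference cells (horizontal axis), for each measured gene of the residency list (left) and of the naive and circulating list (right). Points are ratios, lines exact 95% counting intervals and open triangles ratios set at the floor of 3 counts. On the left the intervals of Bhlhe40, Cd44, Rgs1, Cd69 and Rgs2 lie above 0 and those of the other 9 genes hold 0, while on the right every gene but Tcf7 is on the left of 0.

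Other groups of cells show which side of that comparison stood apart. The residency list summed to 5432 CPM in the Cxcr6-positive cells, 5464 CPM in Cxcr6-positive cells with a gate gene, 5466 CPM in cells with a gate gene and no Cxcr6, 5566 CPM in Foxp3-positive cells and 5529 CPM in the cells with Tbx21 or Ifng. The reference cells stood alone at 3475 CPM. For the naive and circulating list these groups stood at 1345, 1311, 1316, 1331 and 1633 CPM, again with the reference cells apart at 3389 CPM. Summed over each list, then, the Cxcr6-positive cells were at the level of the cells that carry a gate gene. Gene by gene, the residency list was less even. Against all 803 other cells without Cxcr6, reference cells among them, its median log2 ratio was −0.14. Of its 15 measured genes, 3 were at least 1.5-fold higher and 7 at least 1.5-fold lower in that comparison. Over all 4088 genes with at least 50 counts, 625 were higher and 1029 lower by that size. The groups with Foxp3 and with Tbx21 or Ifng are subsets of the cells with a gate gene.

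**Figure D3:**
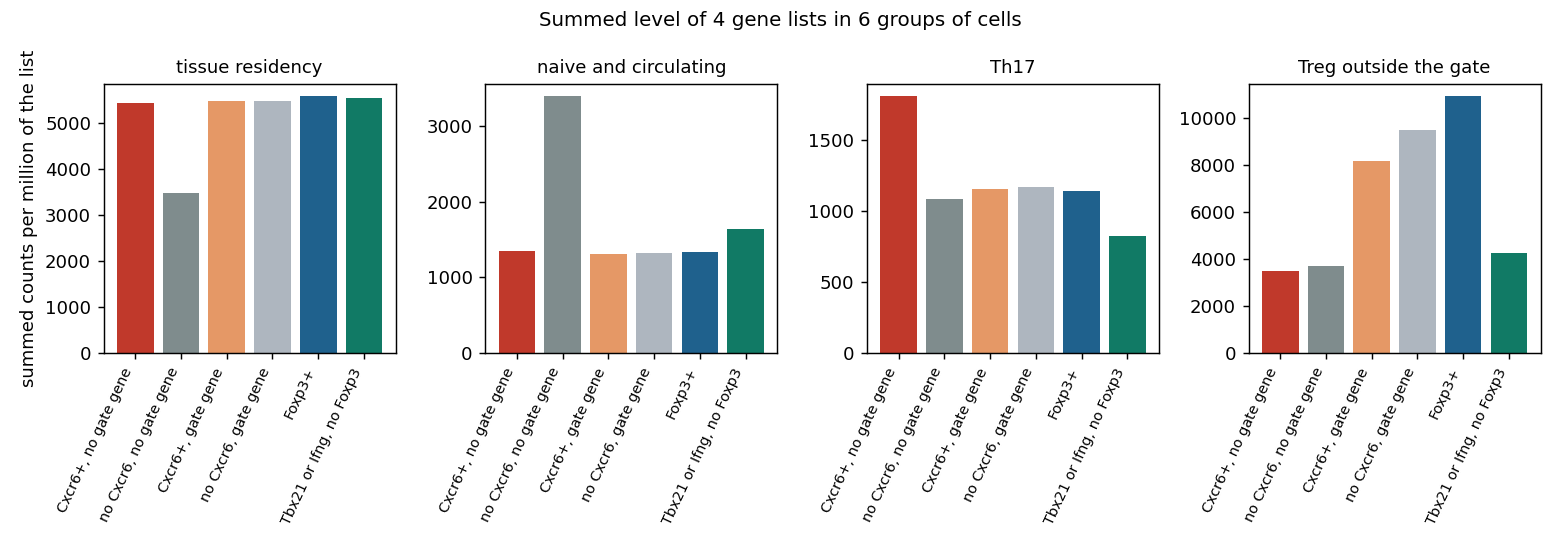
Summed CPM (vertical axis, from 0, with its own scale in each panel) of 4 gene lists in 6 groups of cells; each bar is 1 pooled value with no replicate. The Cxcr6-positive cells without a gate gene (red) match the groups with a gate gene on the residency and naive lists, match the reference cells on the Treg list at 3498 and 3718 CPM, and have the highest bar on the Th17 list at 1811 CPM. That bar includes Il17a and Il17f counts from 5 cells.

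Genes of Th17 cells, the interleukin 17 producers that guard mucosal surfaces, were higher as a list. Of 12 measured genes, 7 were at least 1.5-fold higher and 1 at least 1.5-fold lower, with a median log2 ratio of 0.78. The list summed to 1811 CPM, against 1089 CPM in the reference cells, 1144 CPM in Foxp3-positive cells and 823 CPM in cells with Tbx21 or Ifng. The sum of 1811 CPM includes 23 Il17a and 17 Il17f counts, which came from 5 of the 77 cells. Ccr6, the receptor for the epithelial chemokine CCL20, had 19 counts in 10 of 77 cells and 21 counts in 15 of 251 cells, or 167 against 61.6 CPM (1.44, 0.46 to 2.40). Ltb4r1, the leukotriene B4 receptor, stood at 176 against 61.6 CPM (1.51, 0.55 to 2.47). Tmem176a, a membrane protein known from type 17 lymphocytes, stood at 158 against 64.6 CPM (1.29, 0.31 to 2.26), and Tmem176b at 229 against 147 CPM (0.64, −0.10 to 1.35).

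The cytokine genes were held by very few cells. Il17a had 23 counts in 4 of the 77 cells, with up to 7 in a cell, and 1 count in the reference cells (6.11, 3.48 to 11.5). Il17f had 17 counts in 2 cells, 10 of them in 1 cell, against 7 counts in 3 reference cells (2.86, 1.52 to 4.37). In the 332 Foxp3-positive and the 52 cells with Tbx21 or Ifng, Il17a was listed at 0. Rora, a nuclear receptor of Th17 and other T cells, stood at 308 against 349 CPM (−0.18, −0.77 to 0.37).

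Counted by cell, 24 of the 77 (31.2%, 21.1 to 42.7) had at least 1 of 6 genes (Il17a, Il17f, Il23r, Ccr6, Tmem176a and Tmem176b), against 40 of 251 reference cells (15.9%, 11.6 to 21.1). With every cell thinned to 500 counts the shares were 23.4% (14.5 to 34.4) and 9.16% (5.90 to 13.4). At least 2 of the 6 genes were found in 8 cells (10.4%) and 11 reference cells (4.38%). Without the cells that had a naive gene the list's median was 0.54 and the ratio of Ccr6 was 0.18, while Il17a stood at 5.51 and Tmem176a at 1.11. Most Cxcr6-positive cells, 53 of 77, had none of the 6 genes.

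Gata3, the type 2 lineage factor that colon regulatory T cells also express, was found in 42 of the 77 cells and in 99 of the 251 reference cells. Its level was 1503 against 971 CPM (0.63, 0.35 to 0.90), or 1.55-fold, and the ratio was 0.36 in cells with at least 1000 counts and 0.21 for the cells with 2 or more Cxcr6 counts. The level was 1792 CPM in Cxcr6-positive cells with a gate gene and 1708 CPM in Foxp3-positive cells. The Th2 and Gata3 list as a whole did not follow it. Of its 8 measured genes, 2 were at least 1.5-fold higher, Gata3 being 1 of them, and 5 at least 1.5-fold lower, with a median of −0.61. Klrg1, an inhibitory receptor of effector and regulatory T cells in the gut, stood at 52.7 against 182 CPM (−1.79, −3.29 to −0.58), and at 750 CPM in Foxp3-positive cells. Gata3 did not set the cells with Th17 genes apart. Of the 42 cells with Gata3, 13 (31.0%) had one of these Th17 genes, and of the 35 without it, 11 (31.4%) did.

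Outside the gate, the Treg list stood at the level of the reference cells and far below that of the Foxp3-positive cells, though single genes of it were detected. Of 16 measured Treg genes outside the gate, 2 were at least 1.5-fold higher and 6 at least 1.5-fold lower than in reference cells, with a median log2 ratio of −0.44. The list summed to 3498 CPM, against 3718 CPM in the reference cells and 10925 CPM in the Foxp3-positive cells. Ctla4, the inhibitory receptor that competes with CD28, stood at 527 CPM in 25 of 77 cells, against 455 CPM in reference cells (0.21, −0.24 to 0.65) and 1892 CPM in Foxp3-positive cells. Icos, a costimulatory receptor, stood at 571 against 775 CPM (−0.44, −0.85 to −0.04) and 1923 CPM. Maf, a transcription factor shared by several mucosal T helper types, stood at 976 against 728 CPM (0.42, 0.09 to 0.75) and 1591 CPM. Against all 803 other cells without Cxcr6, which include the Foxp3-positive ones, the ratio was −0.31 for Maf and −1.32 for Ctla4. Il2ra, the high-affinity interleukin 2 receptor chain, stood at 43.9 against 126 CPM (−1.52, −3.22 to −0.19) and 297 CPM. Tnfrsf4, the costimulatory receptor OX40, stood at 96.7 against 179 CPM (−0.89, −1.96 to 0.05), and Tnfrsf18, the receptor GITR, at 281 against 358 CPM (−0.35, −0.96 to 0.22), or −1.24 without the cells that had a naive gene.

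Among receptors for chemoattractants, 5 of 11 measured genes were at least 1.5-fold higher and 4 at least 1.5-fold lower, with a median of 0.02. The median was 0.70 over 9 genes after thinning. It was −0.15 without cells with 3 or more epithelial or stromal counts, so its direction is not settled. Gpr183, the receptor that guides lymphocytes along oxysterol gradients to colonic lymphoid tissue, stood at 817 CPM in 34 cells against 428 CPM in 75 reference cells (0.93, 0.54 to 1.32). It stood at 913 CPM in cells with Tbx21 or Ifng and at 319 CPM in Foxp3-positive cells. Cxcr3, the type 1 homing receptor, had 10 counts against 13 (1.20, −0.15 to 2.51), and a ratio of 0.12 without the cells that had a naive gene. Cxcr4, a receptor for the stromal chemokine CXCL12, stood at 123 against 208 CPM (−0.76, −1.70 to 0.08).

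Of the parts that carry a chemokine receptor signal, 2 of 14 measured genes were at least 1.5-fold higher and 0 at least 1.5-fold lower, with a median of 0.19. The median was −0.25 without cells with genes of other cell types, so its direction is not settled. Gng2, a gamma subunit of heterotrimeric G proteins, stood at 308 CPM in 22 cells against 156 CPM in 37 reference cells (0.98, 0.32 to 1.63). Rac2, the GTPase of leukocyte migration, stood at 1266 against 898 CPM (0.50, 0.20 to 0.79). The ligand gene Cxcl16 had 2 counts in each group.

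Id2, an inhibitor of E proteins that is high in effector and innate-like lymphocytes, was among the best-measured differences. It had 152 counts in 50 of 77 cells and 231 counts in 101 of 251 cells, or 1336 against 678 CPM (0.98, 0.67 to 1.28), and 1286 CPM in cells with Tbx21 or Ifng. Without the cells that had a naive gene its ratio was 0.52. It belongs to the list of Th1 and cytotoxic genes outside the gate, where 5 of 12 measured genes were at least 1.5-fold higher and 2 at least 1.5-fold lower (median 0.39). Fasl, the death ligand of effector T cells, had 12 counts in 8 cells against 5 counts in 3 reference cells (2.85, 1.24 to 4.70).

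Of secreted and surface ligands outside the gate, 4 of 12 measured genes were at least 1.5-fold higher and 1 at least 1.5-fold lower (median 0.45). Tnfsf11, which encodes the cytokine RANKL, stood at 220 CPM in 17 cells against 112 CPM in 26 reference cells (0.98, 0.19 to 1.74). Il16, a chemoattractant for CD4-bearing cells, stood at 246 against 135 CPM (0.87, 0.13 to 1.57), but 12 of its 28 counts were in 1 cell, and the ratio was 0.14 with counts capped at 1 per cell. Of BCL2 family and survival genes, 4 of 12 were at least 1.5-fold higher and 3 at least 1.5-fold lower (median 0.13). That median was −0.16 with counts capped at 1 per cell. Bcl2a1b, an inducible anti-apoptotic gene, stood at 334 against 153 CPM (1.13, 0.49 to 1.76), opposite in direction to Bcl2.

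Single genes of the cytoskeleton and of calcium-binding S100 proteins, which accompany effector T cells, were higher. Of 15 measured genes of this list, 4 were at least 1.5-fold higher and 0 at least 1.5-fold lower (median 0.23). Among all genes with at least 10 counts 20.7% were higher by that size, so the count of higher genes does not set the list apart. The median was 0.08 with cells thinned to 500 counts and 0.30 with counts capped at 1 per cell. Ahnak, a giant scaffold protein, stood at 1494 against 816 CPM (0.87, 0.59 to 1.15). Tagln2, an actin-binding protein, stood at 1520 against 886 CPM (0.78, 0.50 to 1.05), and S100a11 at 1222 against 745 CPM (0.71, 0.40 to 1.02). S100a6, of the same family, stood at 1099 against 1376 CPM (−0.33, −0.62 to −0.04), with a ratio of 0.21 for the 36 cells with 2 or more Cxcr6 counts. Of early response genes, Dusp1, a phosphatase of MAP kinases, stood at 2417 against 1593 CPM (0.60, 0.39 to 0.81), Fos at 817 against 763 CPM (0.10, −0.26 to 0.45) and Jun, its partner, at 61.5 against 255 CPM (−2.05, −3.41 to −0.95), with a ratio of −1.34 without the cells with epithelial or stromal counts.

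The 12 genes of highest ratio were Bhlhe40, Prkag1, Nap1l4, Kcnab2, Cdipt, Lmo4, Sod2, Rbpj, Smad3, Hnrnpd, Adipor1 and Sept11, with log2 ratios from 1.37 for Sept11 to 1.63. Lmo4, a LIM domain cofactor of transcription, stood at 387 CPM in 17 cells against 135 CPM in 31 reference cells (1.52, 0.89 to 2.15). Rbpj, the nuclear effector of Notch signals, stood at 272 against 99.8 CPM (1.45, 0.70 to 2.19). Smad3, which carries signals of TGF beta, stood at 325 against 120 CPM (1.43, 0.75 to 2.11), and Sod2, the mitochondrial superoxide dismutase, at 272 against 99.8 CPM (1.45, 0.70 to 2.19). The 12 of lowest ratio were Igfbp4, Il6ra, Actn1, Bcl2, Laptm4a, Klf2, Sptan1, Cr1l, Jun, Pou2f2, Syncrip and Lef1. Actn1, an actin crosslinker, had 0 counts against 52, at least 5.79-fold lower. Laptm4a, a lysosomal membrane protein, stood at 35.2 against 176 CPM (−2.32, −4.25 to −0.89), and Sptan1, a spectrin, at 35.2 against 167 CPM (−2.25, −4.17 to −0.82). These genes were picked for their ratios, which are no test. With counts capped at 1 per cell, so that each cell with the gene counts once, Lmo4 stood at 0.70, Sept11 at 0.49, Prkag1 at 0.93, Il6ra at −1.60, Igfbp4 at −3.56 and Jun at −0.93. Without the cells that had a naive gene, Adipor1 stood at 0.49, Rbpj at 0.77 and Smad3 at 0.77. Actn1, with 0 counts in the Cxcr6-positive cells, then stood at −0.75, which is a bound at the floor and no measured ratio.

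The same question was put to cells outside the rule: among cells with a gate gene, 170 Cxcr6-positive cells were set against 552 without Cxcr6. This contrast shares no cell with the one above, though it shares the libraries. Of 3640 genes with at least 50 counts, 8.02% were at least 1.5-fold higher and 12.4% at least 1.5-fold lower in the Cxcr6-positive cells. With at least 10 counts these shares were 16.4% and 21.7% of 8421 genes. Of the 12 genes of highest ratio above, Lmo4 was the only one whose interval lay above 0 here, at 127 against 58.0 CPM (1.12, 0.46 to 1.78), and Bhlhe40 stood at −0.02 (−0.52 to 0.46). The naive and circulating list had a median of 0.27, the residency list 0.01 and the Th17 list 0.10.

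A few genes of the lists leaned the same way in both contrasts. Id2 stood at 1237 CPM with Cxcr6 and 836 CPM without it among cells with a gate gene (0.57, 0.38 to 0.75). Gng2 stood at 0.67 (0.21 to 1.11), Ccr6 at 1.37 (0.59 to 2.14), Thy1 at 0.37 (0.19 to 0.54), Cd3g at 0.38 (0.10 to 0.65) and Il17a at 2.32 (0.34 to 4.54). S1pr1 was lower in both, at −1.90 here (−3.58 to −0.58), as was Klf2 at −0.47 (−0.88 to −0.08). Both belong to the naive and circulating list, of whose 13 measured genes 8 were higher and 5 lower among cells with a gate gene. Cxcr3, whose interval held 0 above, stood at 1.31 (0.66 to 1.95). Bcl2 was on opposite sides, at 1.29 here (0.04 to 2.51), and Ahnak at −0.21 (−0.38 to −0.03). Whether these ratios differ between the 2 contrasts was not tested.

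**Figure D4:**
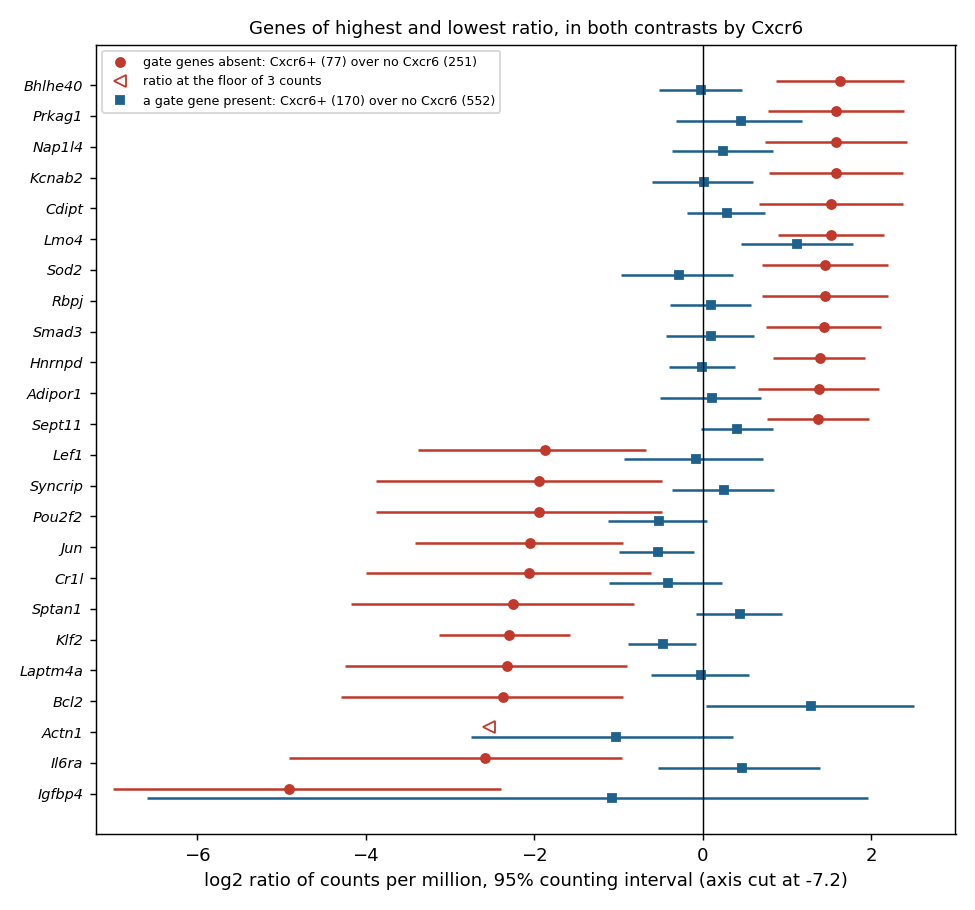
Log2 ratio of CPM, Cxcr6-positive over Cxcr6-negative cells (horizontal axis), for the 12 genes of highest and the 12 of lowest ratio among cells without a gate gene (red circles, 77 over 251 cells; open triangle, ratio at the floor) and for the same genes among cells with a gate gene (blue squares, 170 over 552 cells). Lines are exact 95% counting intervals. The blue squares lie near 0 for most genes, with Lmo4 at 1.12 and Bcl2 at 1.29.

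Shares of cells with a count depend on depth, so each cell was also thinned once to 500 counts. Klf2 was then found in 5.19% of Cxcr6-positive cells (1.43 to 12.8), 21.1% of reference cells (16.2 to 26.7) and 9.64% of Foxp3-positive cells. Thy1 was found in 64.9% (53.2 to 75.5) against 37.5% (31.4 to 43.8), and in 45.3% of Cxcr6-positive cells with a gate gene. Tagln2 was found in 50.6% (39.0 to 62.2) against 27.5% (22.1 to 33.5), and Id2 in 44.2% (32.8 to 55.9) against 25.1% (19.9 to 30.9). Bcl2a1b was found in 22.1% (13.4 to 33.0) against 7.17% (4.31 to 11.1). Ccr6 was found in 13% (6.41 to 22.6) against 3.19% (1.39 to 6.18), and in 3.53% of Cxcr6-positive cells with a gate gene. For Gata3 the intervals overlapped, at 39.0% (28.0 to 50.8) against 28.3% (22.8 to 34.3), and for Ctla4 they were nearly the same, at 20.8% (12.4 to 31.5) and 19.5% (14.8 to 25.0). The unthinned shares were 9.09% and 29.5% for Klf2, 88.3% and 56.6% for Thy1, 75.3% and 48.6% for Tagln2, 64.9% and 40.2% for Id2, 28.6% and 15.1% for Bcl2a1b, 13% and 5.98% for Ccr6, 54.5% and 39.4% for Gata3, and 32.5% and 26.7% for Ctla4.

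**Figure D5:**
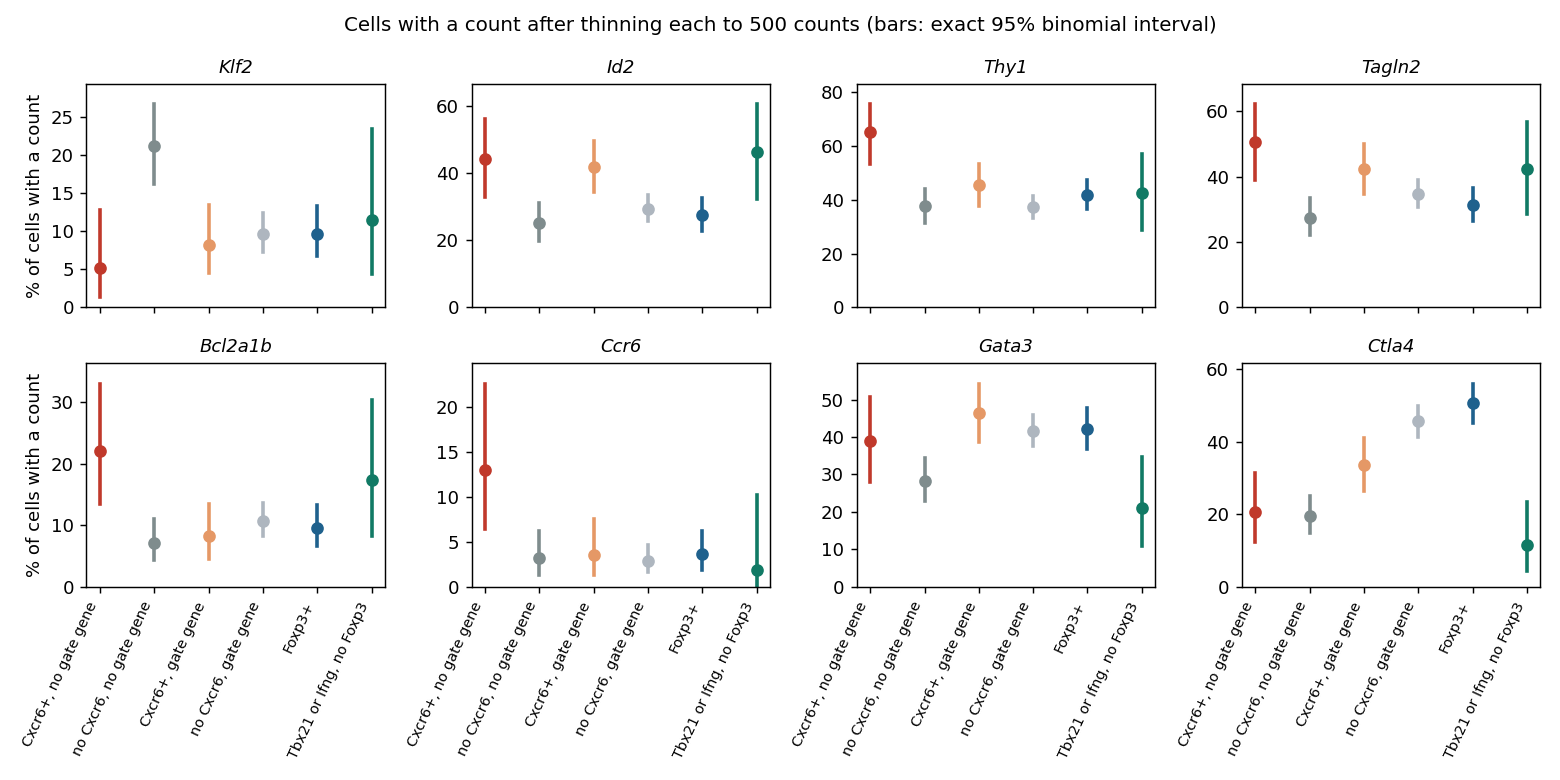
Percent of cells with a count (vertical axis, own scale in each panel) of 8 genes in 6 groups, each cell thinned to 500 counts; points are shares and lines exact 95% binomial intervals. The Cxcr6-positive cells without a gate gene (red) are the lowest for Klf2 at 5.19% and the highest for Thy1, Tagln2, Bcl2a1b and Ccr6.

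Splits within the 77 cells are given as values only, since the genes named were picked after their values were seen from those with the largest differences, and Cxcr6 itself chose the cells. Of 933 genes with at least 20 counts, 176 were at least 1.5-fold higher and 170 lower in the split by Cxcr6 count, and 174 and 177 in the split by Gata3. In the split by Th17 genes these numbers were 151 and 191 of 932. The 36 cells with 2 or more Cxcr6 counts (median depth 1388 counts) were set against the 41 with 1 (median depth 1195 counts). All 23 Il17a counts were in the former, in 4 cells, and 0 counts in the latter. S100a6 stood at 1590 against 590 CPM (1.43, 0.84 to 2.05), Sept11, a septin, at 605 against 179 CPM (1.76, 0.71 to 2.94) and Tnfrsf18 at 104 against 465 CPM (−2.16, −3.74 to −0.85). Gata3 stood at 1124 against 1895 CPM (−0.75, −1.22 to −0.30).

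Split by Gata3, the 42 cells with it had more Adipor1, an adiponectin receptor, with 30 counts in 13 cells against 3 counts in 3 of the 35 cells without it (2.99, 1.31 to 5.35). Dusp1 stood at 2904 against 1805 CPM (0.69, 0.32 to 1.06). Lmo4 stood at 205 against 615 CPM (−1.58, −2.64 to −0.61), Gng2 at 174 against 476 CPM (−1.46, −2.63 to −0.37) and Cd3g at 473 against 1151 CPM (−1.28, −1.97 to −0.62). Split by the 6 Th17 genes, the 24 cells with 1 or more had more Ctla4, at 870 against 364 CPM in the other 53 (1.26, 0.48 to 2.04). They had less Cd44, at 789 against 1740.1 CPM (−1.14, −1.77 to −0.55), and less Fos, at 490 against 974 CPM (−0.99, −1.82 to −0.24).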

How the data were processed

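The deposited table gives whole-number counts per barcode and gene symbol in 1985 barcodes and 25724 symbols. Per the submitters' processing notes the authors used TopHat2 and SAMtools with the mm10 build. How reads were counted, whether by molecular identifier or strand, and how barcodes were filtered is not given in the sources used here, so reads from overlapping genes may be mixed and intervals cover counting error only. Kept barcodes had 500 or more counts, 200 or more genes and a mitochondrial share under 20%. Members, gene lists and comparisons were chosen with earlier results of these data known.

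Counts were summed per group and scaled to CPM (Python 3.11.15, numpy 2.4.6, pandas 2.3.3, scipy 1.17.1). The ratio method was tested on simulated pooled counts, drawn independently for each gene. That simulation held no cells, so it does not cover genes whose counts gather in 1 cell, such as Muc2. Named were the 12 highest and 12 lowest genes with at least 50 counts, found in at least 10% of cells of the higher group, without gate, ribosomal, mitochondrial, receptor, immunoglobulin and predicted genes. From each of the 28 lists, genes were taken among the 4 with most counts and those at least 1.5-fold apart, and Cd3e, Cd4, Itgae, Itga4, Cxcr3, Ccr6, Cxcl16, Il17a, Il17f, Tmem176a, Fasl and Il2ra were added from the lists after their values were seen. Symbols were placed with GENCODE vM21. Doublets, called by Scrublet in scanpy 1.11.5, were 9 cells (0.857%), none a member, and stayed in. A few list genes are not reported here, and some of them were left out of the lists and splits. The alternatives are in the closing section.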

Additional observations from a re-analysis of the deposited data

Results flagged for a closer look

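Barcodes left out by the cell filter also held Cxcr6. Of 933 such barcodes with at least 1 count, 18 (1.93%, 1.15 to 3.03) had a Cxcr6 count, 23 counts in all, which is above the limit of 3 counts that a count of 0 allows. Of these 18, 13 had none of the gate genes. The Cxcr6 level in the barcodes left out was 162 CPM, against 329 CPM in the kept cells. The median depth of the barcodes left out was 88 counts, and at that depth a count of 0 for the gate genes says little, so these barcodes were not added to the cells described.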

How the results depend on the processing

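The table pools the 4 labelled samples, so leaving out a replicate was not run. No paired analysis was possible because barcodes carry no sample or replicate number. The share of members stayed between 7.33% and 8.05% under the 3 alternative cell filters. The number of genes at least 1.5-fold higher (205) and lower (192) varied with how many genes had enough counts to enter. It was 37 and 42 of 418 genes with cells thinned to 500 counts, and 45 and 36 of 835 with counts capped at 1. It was 107 and 111 of 834 without cells with genes of other cell types, and 727 and 871 of 3810 with a minimum of 20 counts. Of alternatives added after the data were seen, leaving out cells with a naive gene gave 97 and 95 of 828 genes, and taking all 803 other cells without Cxcr6 as reference gave 625 and 1029 of 4088. Among cells with a gate gene the 292 higher genes became 71 of 1200 after thinning and 103 of 2643 with capped counts. The residency list's median turned from 0.37 to −0.0997 without cells with a naive gene and to −0.14 against all other cells without Cxcr6; the cause was not tested. The medians of the Th17, Treg and Th2 lists kept their direction in every alternative run. So did that of the naive list, except that without cells with a naive gene, a setting that removes cells by 5 of the list's own genes, it was −0.0091 over 9 genes, with 4 higher and 5 lower. The list of CXCR6 ligand and G protein signalling turned from 0.19 to −0.25 without cells with genes of other cell types. Of 775 gene ratios under alternatives, 692 stayed within the interval of the reported ratio, and 1 that was at least 1.5-fold changed side: Dusp1, −0.081 against all other cells without Cxcr6. The pooled number takes in settings that change little: without called doublets, 1 of them a reference cell, all 72 ratios stayed. With cells thinned to 500 counts 51 of 70 stayed, with capped counts 56 of 71, and against all other cells without Cxcr6 51 of 71. With 113777 counts in the 77 cells, 1 count corresponds to 8.79 CPM and the floor of 3 counts to 26.4 CPM, so for genes with few counts in them the intervals are wide.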

Other observations

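Gene groups of growth, metabolism and stress are given here by their counts. Of 17 measured cell cycle genes, 8 were higher and 9 lower, with a median log2 ratio of −0.00 and a summed level of 3375 against 2785 CPM. Of 13 measured glycolysis genes, 7 were higher and 6 lower (median 0.03, 2602 against 2533 CPM). Of 12 genes of lipid and fatty acid use, 2 were at least 1.5-fold higher and 4 at least 1.5-fold lower (median −0.19, 466 against 628 CPM). Of 9 interferon response genes, 0 were at least 1.5-fold higher and 3 at least 1.5-fold lower (median −0.27, 659 against 901 CPM). The interferon median was −0.99 over 6 genes after thinning, −0.80 over 6 genes without cells with genes of other cell types and 0.03 over 7 genes with counts capped at 1 per cell. Of 15 cytokine receptor genes, 8 were higher and 7 lower (median 0.02, 2610 against 2471 CPM). Of 10 genes of dissociation stress, 5 were higher and 5 lower (median −0.02, 4588 against 4986 CPM). Of 18 early response genes, 12 were higher and 6 lower (median 0.10, 10064 against 9121 CPM).

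Lists with 5 or fewer measured genes gave little. The T follicular helper list summed to 246 CPM against 247 CPM and the list of inhibitory receptors to 958 against 913 CPM. The NKT and innate-like list summed to 352 against 387 CPM, the list of CD8, gamma delta, innate lymphoid and NK genes to 87.9 against 88.0 CPM and the B or plasma cell list to 246 against 431 CPM.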
